A study of Arabidopsis thaliana with 16 samples.

Results

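In Arabidopsis shoots, 186 probe sets on the Affymetrix ATH1 array had a much lower signal at 10 h than at 4 h. A probe set is a group of short oligonucleotides on the array that reads 1 transcript or a few similar ones, and its intensity is the brightness summarised over them. A probe set was a member when the mean of log2(intensity + 16) at 10 h lay 1.5 or more below the mean at 4 h in each of phyB-1 at 22 °C, Ler at 22 °C and Ler at 16 °C. On that scale the threshold is a 2.83-fold difference, and the added 16 makes the scale understate the change of dim probe sets. Of 22746 probe sets that are not array controls, 191 met the thresholds and 5 were set aside by name (AT5G15950, SWEET13, ARD4, HYH and AT1G73600), which left 186. The annotation table of the platform gave 1 gene for 56 of them, 2 had several genes and 128 have no entry in it and stay unnamed. Those 56 probe sets stood for 56 different genes. Since a probe set can be set aside by name only where the table names it, unlisted probe sets of such genes may be among the members.

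The samples were whole plants without roots, grown on soil and measured on 16 arrays, 2 per group. The groups were phyB-1 (stock N6211) at 22 °C, Ler (stock NW20) at 22 °C, phyB-1 at 16 °C and Ler at 16 °C, each at 10 h and at 4 h. Ler is the Landsberg erecta wild type, and phyB-1 is a mutant that lacks a working phytochrome B, the main photoreceptor for red light in light-grown plants. What the hours are counted from is not stated in the labels. Neither is it stated whether replicate arrays hold separately grown plants, and p-values below therefore measure a spread that may be technical. Every sample carries the same growth text, 5 days at 4 °C in the dark, then 11 days at 16 °C and 21 days at 22 °C, which leaves the schedule of the plants labelled 16 °C unclear. No probe set is named for PHYB, so the level of the mutated gene was not analysed here.

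In green plant tissue a large share of transcripts rise and fall each day, set by light through the phytochromes and cryptochromes, by the circadian clock and by sugar. Transcripts that peak early in the light period are known to include genes for light signalling, pigment and flavonoid synthesis, protection from oxidants, sulfur assimilation and the cell wall. Phytochrome B is also a temperature sensor, because its active form is lost faster in warmth.

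Before the results, 2 arrays need a remark, the arrays labelled phyB-1 16 °C 10 h replicate 2 and phyB-1 16 °C 4 h replicate 2. Earlier results of these data put each with the arrays of the other labelled time, and they are called the disputed arrays. The correlations below cannot tell which replicate of a group differs from its label. Pearson correlations between the replicate arrays of a group were 0.963 to 0.978 in the 6 other groups, and at 0.920 in phyB-1 at 16 °C 10 h and 0.918 in phyB-1 at 16 °C 4 h. Median intensities lay between 36.8 and 41.0 on the replicate 1 arrays and between 30.7 and 33.2 on the replicate 2 arrays, without overlap. Lower quartiles also split, at 9.63 to 11.5 on the replicate 1 arrays and 5.84 to 7.63 on the replicate 2 arrays. The rule for members used no array of phyB-1 at 16 °C, so the disputed arrays had no part in the choice, and results that rest on them are given with and without them.

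The members' median log2(intensity + 16) was 6.06 to 6.21 on the 6 arrays at 10 h, against 8.37 to 8.52 on the 6 arrays at 4 h, in phyB-1 at 22 °C, Ler at 22 °C and Ler at 16 °C together. The ranges did not overlap. In phyB-1 at 16 °C the replicate 1 arrays had a median of 6.38 at 10 h, against 8.58 at 4 h. The replicate 2 arrays ran the other way, with 8.60 on the array labelled 10 h, against 6.42 on the array labelled 4 h.

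**Figure D1:**
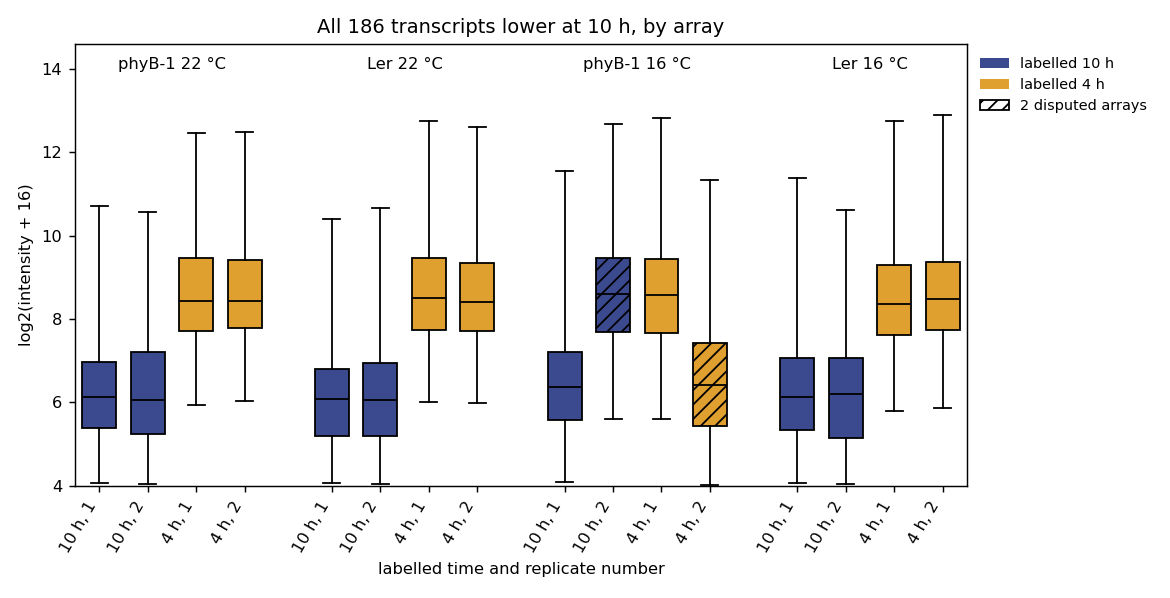
Box plots of log2(intensity + 16) of all 186 members on each of the 16 arrays, by labelled time and replicate number; boxes span the quartiles, lines mark medians and whiskers reach the lowest and highest member. Arrays at 10 h have medians of 6.06 to 6.38, against 8.37 to 8.58 at 4 h, apart from the hatched disputed arrays at 8.60 (labelled 10 h) and 6.42 (labelled 4 h).

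Members were chosen by the 10 h minus 4 h differences of these 12 arrays, which are given as a description. The median member differed between 10 h and 4 h by -2.23 in phyB-1 at 22 °C, -2.32 in Ler at 22 °C and -2.07 in Ler at 16 °C on the log2 scale. The mean of the 3 differences had a median of -2.23 and ran from -5.60 to -1.57. It was -2 or lower for 120 members and -3 or lower for 23, of which 4 were named. On the linear scale the mean over 6 arrays had a median of 50.9 at 10 h, against 342.6 at 4 h, and the median member kept 15.8% of its 4 h level at 10 h (quartiles 10.3% and 23.1%, highest 32.4%). The lowest shares belong to members at the dimmest signals of the arrays at 10 h, where a share is no exact value, and they are not given.

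Replicates were alike in direction. In all 186 members the 10 h array lay below the 4 h array of the same replicate number in each of the 3 groups, and for 126 members each of those 6 differences was -1.5 or lower. For 184 members all 6 arrays at 10 h lay below all 6 arrays at 4 h. The members without this separation were AT5G62210 and the unlisted probe set 250207_at, both described with temperature below. How many of all probe sets were separated in this way was not counted. By a different measure, 16.6% of 13648 tested probe sets were called lower at 10 h over the same 12 arrays. The rule used this contrast, so nothing is read from any of these counts. Ler at 16 °C gave the smallest of the 3 differences for 96 members, phyB-1 at 22 °C for 50 and Ler at 22 °C for 40.

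Many members became dim. At least 1 of the 6 arrays at 10 h had the member below that array's lower quartile for 42 members, and all 6 had for 4. The 10 h levels of these members are close to the dimmest signals of the arrays. At the threshold, the members closest to it were 247921_at, AT2G19650 and 246998_at, with a smallest difference of -1.5046, -1.5085 and -1.5086. Just outside were 245348_at, 250561_at and 259277_at, at -1.4995, -1.4970 and -1.4956. The mirrored thresholds, 1.5 or more higher at 10 h in the same 3 groups, took 139 probe sets.

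Shoots are mixed tissue, and fewer cells of a type and less RNA per cell cannot be told apart in these arrays. Markers of photosynthetic shoot cells, all 4 of the listed genes that had a named probe set (LHCB4.1, PRK, RCA and SBPASE), summed to 15391 to 21315 at 10 h, against 25582 to 31249 at 4 h, so this sum was lower at 10 h too. Summed markers of other tissues overlapped between times. They were 134 to 390.3 at 10 h and 116 to 333 at 4 h for 4 root genes, of which PYK10 held most and XTH26 was below the lower quartile on every array. They were 28.7 to 78.3 at 10 h and 32.8 to 67.6 at 4 h for 4 flower and pollen genes, and 9.85 to 41.3 at 10 h and 15.4 to 38.5 at 4 h for 3 seed genes. For 3 stomatal lineage and guard cell genes the sums were 92.4 to 173 at 10 h and 97.3 to 206 at 4 h. The log2 ratio of the 3' to the 5' control probe set, a sign of RNA quality, had a median of 0.74 for GAPDH at 10 h, against 0.61 at 4 h, with overlapping ranges (0.47 to 0.81 at 10 h, 0.32 to 0.71 at 4 h). For actin the log2 ratio was much larger, with a median of 3.51 at 10 h (3.34 to 4.26), against 3.36 at 4 h (3.05 to 3.99), again with overlapping ranges. The part of these markers and controls in the members' difference was not tested.

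The largest differences among named members were those of AT1G13650, for which no role is given here. AT1G13650 had intensities of 15.3 and 13.2 in phyB-1 at 22 °C, 3.79 and 19.0 in Ler at 22 °C, and 34.9 and 21.0 in Ler at 16 °C at 10 h. At 4 h it had 1003 and 812 in phyB-1 at 22 °C, 1175 and 1129 in Ler at 22 °C, and 968 and 1057 in Ler at 16 °C. All 6 arrays at 10 h were below 35, far under every array at 4 h. The lowest, 3.79 in replicate 1 of Ler at 22 °C, was under the lower quartile of its array (10.02). The differences were -4.93 in phyB-1 at 22 °C, -5.47 in Ler at 22 °C and -4.57 in Ler at 16 °C.

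AT3G21670 encodes NPF6.4, a member of the nitrate and peptide transporter family. Its 10 h intensities were 39.4 and 51.9 in phyB-1 at 22 °C, 35.4 and 28.4 in Ler at 22 °C, and 43.7 and 32.3 in Ler at 16 °C. Those at 4 h were 994 and 878 in phyB-1 at 22 °C, 913 and 1059 in Ler at 22 °C, and 553 and 709.7 in Ler at 16 °C. The times did not overlap, the 4 h arrays of Ler at 16 °C were the dimmest of the 4 h arrays, and the differences were -3.95 in phyB-1 at 22 °C, -4.39 in Ler at 22 °C and -3.58 in Ler at 16 °C. Another gene of the family, AT2G26690 (NPF6.2), ranged over 78.5 to 223 at 10 h, against 379 to 699 at 4 h, with a mean difference of -1.86.

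AT5G35970 gave 66.9 and 80.5 in phyB-1 at 22 °C, 55.5 and 76.6 in Ler at 22 °C, and 117 and 127 in Ler at 16 °C at 10 h. It gave 1177 and 1154 in phyB-1 at 22 °C, 1136 and 1062 in Ler at 22 °C, and 1371 and 1283 in Ler at 16 °C at 4 h. The 10 h arrays of Ler at 16 °C were the brightest of the 10 h arrays, and none came near the 4 h arrays. AT3G56290 had 69.9 and 77.6 in phyB-1 at 22 °C, 99.97 and 71.8 in Ler at 22 °C, and 132 and 126 in Ler at 16 °C at 10 h. Its 4 h values were 988 and 1108 in phyB-1 at 22 °C, 982 and 813 in Ler at 22 °C, and 1005 and 804 in Ler at 16 °C. Here too Ler at 16 °C was the brightest group at 10 h, and its difference of -2.66 was the smallest, beside -3.57 in phyB-1 at 22 °C and -3.17 in Ler at 22 °C.

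AT5G01790 was measured at 34.5 and 22.6 in phyB-1 at 22 °C, 23.0 and 17.3 in Ler at 22 °C, and 38.5 and 15.2 in Ler at 16 °C at 10 h. At 4 h it was measured at 326 and 321 in phyB-1 at 22 °C, 320.0 and 294 in Ler at 22 °C, and 222 and 328 in Ler at 16 °C. Replicates at 10 h differed most in Ler at 16 °C, and no 10 h array reached the lowest 4 h array. AT3G01060 showed 47.2 and 53.1 in phyB-1 at 22 °C, 37.3 and 51.5 in Ler at 22 °C, and 176 and 146 in Ler at 16 °C at 10 h. It showed 735 and 670.5 in phyB-1 at 22 °C, 648 and 729 in Ler at 22 °C, and 606 and 684 in Ler at 16 °C at 4 h. Its 4 h levels were alike in the 3 groups, and its 10 h levels were highest in Ler at 16 °C, and its differences were -3.44 in phyB-1 at 22 °C, -3.55 in Ler at 22 °C and -1.90 in Ler at 16 °C.

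AT5G55570 and AT5G55620 lie near each other on chromosome 5, with 4 protein-coding genes between them. AT5G55570 read 5.95 and 5.60 in phyB-1 at 22 °C, 12.7 and 22.6 in Ler at 22 °C, and 25.9 and 21.1 in Ler at 16 °C at 10 h. It read 226 and 159 in phyB-1 at 22 °C, 151 and 126 in Ler at 22 °C, and 247 and 323 in Ler at 16 °C at 4 h. Ler at 16 °C was the brightest group at 4 h and Ler at 22 °C the dimmest, with no overlap between times. AT5G55620 read 141 and 142 in phyB-1 at 22 °C, 137 and 124 in Ler at 22 °C, and 113 and 103 in Ler at 16 °C at 10 h. At 4 h it read 1183 and 1045 in phyB-1 at 22 °C, 1143 and 888 in Ler at 22 °C, and 766 and 773 in Ler at 16 °C. Its differences were close in all 3 groups, at -2.84 in phyB-1 at 22 °C, -2.81 in Ler at 22 °C and -2.67 in Ler at 16 °C. The other close pair of named members was GR1 and AT3G24190 on chromosome 3, with 1 gene between them. By chromosome, the 56 named members numbered 16, 6, 14, 5 and 15 on chromosomes 1 to 5.

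**Figure D2:**
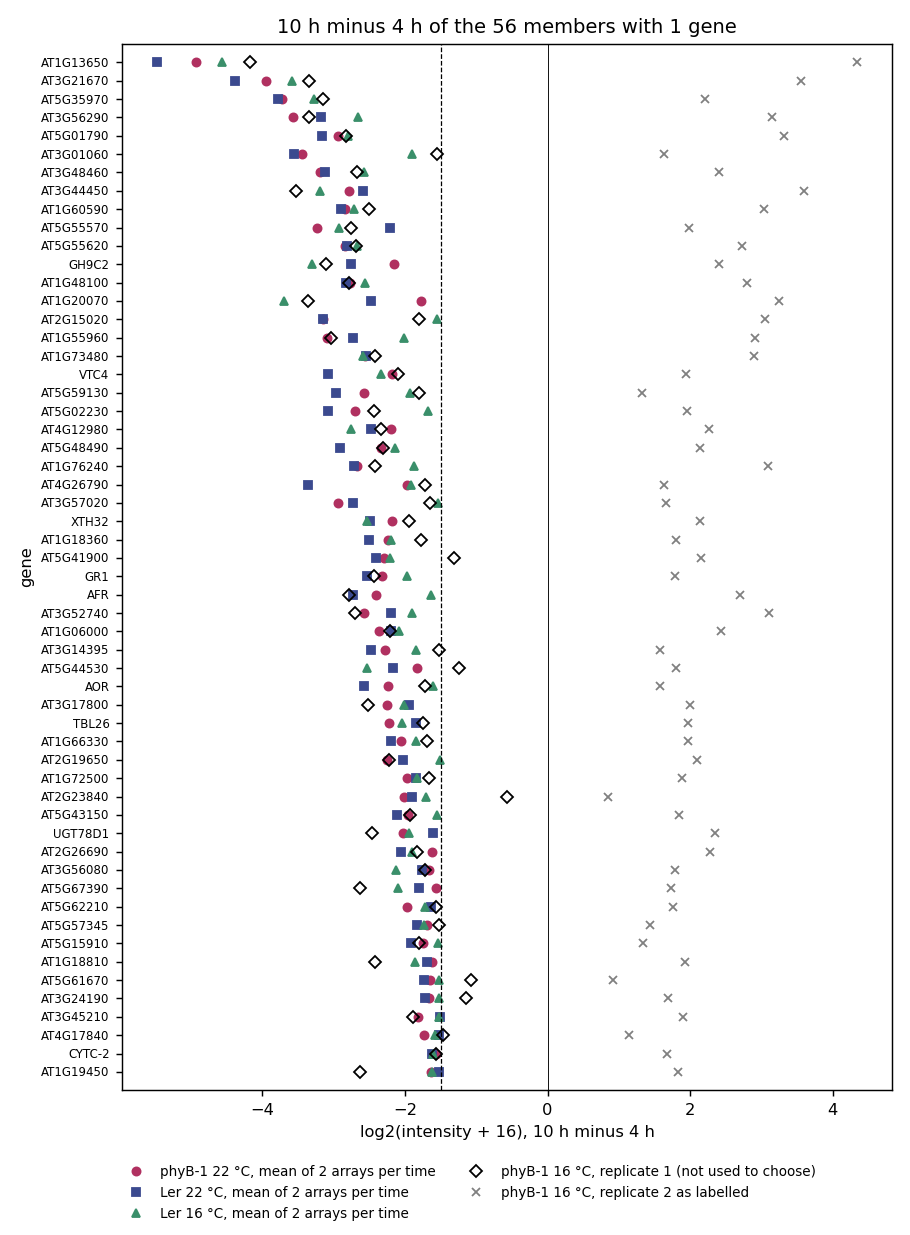
Differences in log2(intensity + 16), 10 h minus 4 h, of the 56 members with 1 gene, in order of the mean of the 3 differences that chose them (filled marks, each from 2 arrays per time). The dashed line is the threshold of -1.5; open diamonds (phyB-1 at 16 °C, replicate 1) lie below 0 and crosses (replicate 2 as labelled) above 0 for all 56.

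Light signalling genes formed one group of roles. The grouping by role was made with the members in view and is a description. AT3G44450 and AT3G52740 encode related small proteins that inhibit cryptochromes, the blue light receptors, by blocking their pairing. AT3G44450 had 27.8 and 7.16 in phyB-1 at 22 °C, 45.2 and 19.8 in Ler at 22 °C, and 22.9 and 18.0 in Ler at 16 °C at 10 h. It had 233 and 176 in phyB-1 at 22 °C, 252 and 280.0 in Ler at 22 °C, and 361 and 276 in Ler at 16 °C at 4 h. The brightest 10 h array, replicate 1 of Ler at 22 °C, stayed below the dimmest 4 h array, replicate 2 of phyB-1 at 22 °C, and the differences were -2.78 in phyB-1 at 22 °C, -2.59 in Ler at 22 °C and -3.19 in Ler at 16 °C.

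AT3G52740 was dimmer, at 3.04 to 16.9 at 10 h, against 71.3 to 119 at 4 h, and its 2 highest arrays at 10 h were those of Ler at 16 °C. AFR encodes an F-box protein with Kelch repeats that acts in far-red signalling from phytochrome A. It ranged over 0.764 to 18.1 at 10 h, against 61.3 to 176 at 4 h. The 4 h arrays of Ler at 16 °C were the lowest of that time, and the differences were -2.40 in phyB-1 at 22 °C, -2.73 in Ler at 22 °C and -1.64 in Ler at 16 °C. AT1G18810, of the phytochrome kinase substrate family, ranged over 39.2 to 60.4 at 10 h and 181 to 242 at 4 h. Of the 77 light signalling and B-box genes listed for comparison, 2 had a named probe set, HYH, which was set aside, and FHL, which was too dim to be tested. None of 17 morning and day genes of the clock had a named probe set. The single evening clock gene tested, GI, was lower at 10 h, at -0.76 ± 0.13 (SE), adjusted p = 0.00021 by limma.

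Cell wall genes formed the second group. AT1G60590 and AT1G48100 encode proteins of the polygalacturonase family, which cut pectin. AT1G60590 stood at 51.5 and 52.1 in phyB-1 at 22 °C, 34.6 and 60.5 in Ler at 22 °C, and 51.6 and 55.9 in Ler at 16 °C at 10 h. It stood at 436 and 507 in phyB-1 at 22 °C, 425 and 474 in Ler at 22 °C, and 459.9 and 427 in Ler at 16 °C at 4 h. The 4 h arrays lay within a narrow band, and the differences were -2.84 in phyB-1 at 22 °C, -2.90 in Ler at 22 °C and -2.72 in Ler at 16 °C. AT1G48100 ranged over 4.04 to 14.7 at 10 h, against 131 to 153 at 4 h.

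GH9C2 encodes an endoglucanase of glycosyl hydrolase family 9. At 10 h it had 103 and 142 in phyB-1 at 22 °C, 69.1 and 73.2 in Ler at 22 °C, and 61.4 and 61.5 in Ler at 16 °C. At 4 h it had 578 and 607 in phyB-1 at 22 °C, 469 and 695 in Ler at 22 °C, and 909 and 615 in Ler at 16 °C. The 10 h arrays were brightest in phyB-1 at 22 °C and dimmest in Ler at 16 °C, giving differences of -2.15 in phyB-1 at 22 °C, -2.75 in Ler at 22 °C and -3.30 in Ler at 16 °C. XTH32 encodes a xyloglucan endotransglucosylase/hydrolase, an enzyme that cuts and rejoins wall polymers. It had 167 and 152 in phyB-1 at 22 °C, 103 and 155 in Ler at 22 °C, and 108 and 136 in Ler at 16 °C at 10 h. It had 721 and 841 in phyB-1 at 22 °C, 785 and 784 in Ler at 22 °C, and 677 and 897 in Ler at 16 °C at 4 h. The times did not overlap and the 3 differences were close, at -2.18 in phyB-1 at 22 °C, -2.49 in Ler at 22 °C and -2.53 in Ler at 16 °C. TBL26, of the trichome birefringence-like family whose known members acetylate wall polymers, ranged over 24.1 to 53.2 at 10 h and 172 to 269.9 at 4 h. Beside XTH32, 12 genes of a list of 69 cell wall loosening and synthesis genes were tested, of which 7 were higher and 2 lower at 10 h (17.2% and 16.6% of all tested probe sets). Their median difference was 0.81, against 0.0045 over the 13462 tested probe sets that are not members. EXLA1 and XTH33 were higher, by 2.55 ± 0.14 and 2.04 ± 0.18 (SE), and the expansin genes EXPA8 and EXPA15 lower, at -1.59 ± 0.15 and -1.18 ± 0.14 (SE).

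Redox genes came next. VTC4 encodes L-galactose-1-phosphate phosphatase, an enzyme of ascorbate synthesis, and ranged over 76.4 to 200.02 at 10 h, against 688 to 1222 at 4 h. GR1 encodes a glutathione reductase and ranged over 70.7 to 135 at 10 h, against 469.8 to 613 at 4 h. The lowest 10 h arrays of both genes were those of Ler at 22 °C. AOR, an enzyme that reduces reactive carbonyls, remained among the brighter members at 10 h with 261 to 359, against 787 to 1983 at 4 h. CYTC-2, a cytochrome c of the respiratory chain, was near the threshold with 77.0 to 111 at 10 h, against 244 to 355 at 4 h, and differences of -1.56 in phyB-1 at 22 °C, -1.62 in Ler at 22 °C and -1.60 in Ler at 16 °C.

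Flavonol genes were UGT78D1 and AT1G06000, which encode transferases that attach the sugar rhamnose to flavonols. UGT78D1 had 59.8 and 61.1 in phyB-1 at 22 °C, 58.6 and 58.7 in Ler at 22 °C, and 58.2 and 59.4 in Ler at 16 °C at 10 h. It had 298 and 292 in phyB-1 at 22 °C, 208 and 214 in Ler at 22 °C, and 231 and 322 in Ler at 16 °C at 4 h. The 6 arrays at 10 h were nearly equal, and the spread at 4 h was wider. AT1G06000 ranged over 1.92 to 30.9 at 10 h, against 77.8 to 192 at 4 h. UGT78D1 was the member on a list of 52 phenylpropanoid and flavonoid genes, and all 4 others tested from it were lower at 10 h, with a median of -0.96, where 16.6% of all tested probe sets were lower. They were UGT78D2 at -1.61 ± 0.12, HCT at -0.97 ± 0.13, UF3GT at -0.95 ± 0.16 and DFR at -0.82 ± 0.14 (SE).

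**Figure D3:**
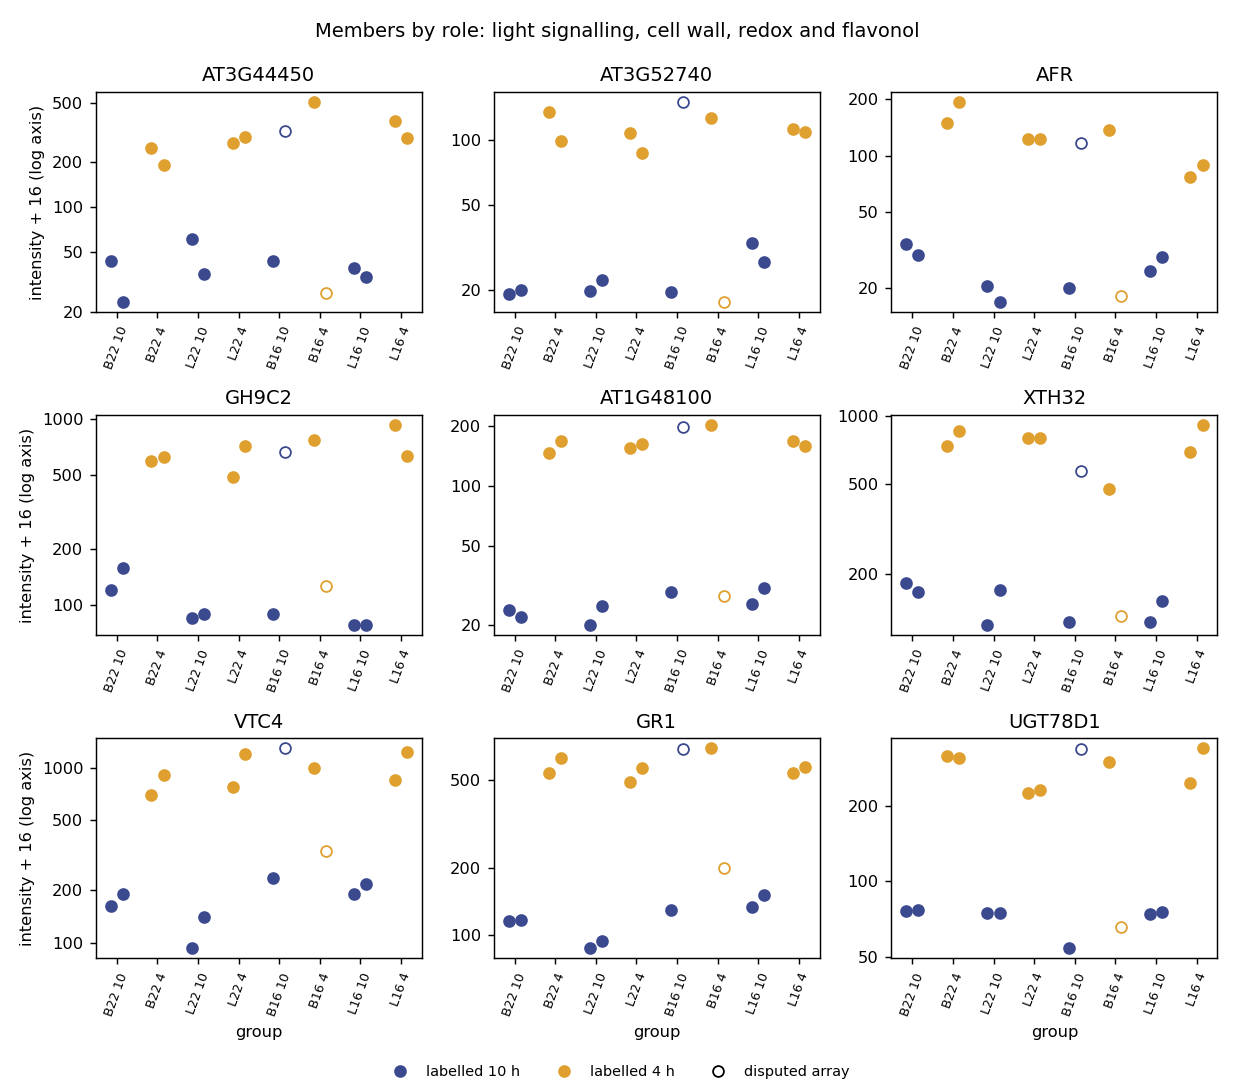
Intensity + 16 on a log axis of 9 members with a role in light signalling (AT3G44450, AT3G52740, AFR), the cell wall (GH9C2, AT1G48100, XTH32), redox (VTC4, GR1) and flavonols (UGT78D1); each point is 1 array, B is phyB-1, L is Ler, 22 and 16 are °C, and the last number is the labelled hour. All 10 h points lie below all 4 h points except the open disputed arrays.

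Lipid and hydrolase genes formed a further group. AT3G48460, a GDSL esterase/lipase, had 43.8 and 58.6 in phyB-1 at 22 °C, 50.0 and 53.5 in Ler at 22 °C, and 57.8 and 63.7 in Ler at 16 °C at 10 h. It had 627 and 557 in phyB-1 at 22 °C, 562 and 587 in Ler at 22 °C, and 447 and 434 in Ler at 16 °C at 4 h. Its 10 h arrays lay within a narrow band, and its 4 h arrays were dimmer in Ler at 16 °C than in either group at 22 °C. Another GDSL gene, AT4G26790, spread from 0.845 to 23.0 at 10 h, against 71.5 to 258 at 4 h, with some 10 h arrays near 0. The alpha/beta hydrolase genes AT1G73480, AT1G18360 and AT5G41900 had mean differences of -2.57, -2.31 and -2.30. Genes for lipid-binding proteins were AT5G48490, which is similar to the lipid transfer protein DIR1, and AT1G55960, with a START domain. AT5G48490 was the brightest named member, at 256 to 846 at 10 h, against 1750.2 to 3749 at 4 h.

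Other named members had single roles. AT5G59130 and AT5G44530 encode subtilases, a family of proteases, with mean differences of -2.49 and -2.18. AT3G57020, of the strictosidine synthase-like family, had -2.40, and AT1G19450, of the ERD6-like sugar transporters, had -1.59. AT5G61670 encodes an ORANGE protein, which acts in carotenoid accumulation in plastids, and ranged over 158 to 215 at 10 h, against 498 to 736 at 4 h. It kept 30.3% of its 4 h level, more than most members.

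The other lists give the surroundings of the members in the same contrast, for genes that are not members. Beside each count stands the same background, 16.6% of all tested probe sets lower and 17.2% higher at 10 h. That background includes the members. Without them, 2081 of 13462 tested probe sets were lower and 2345 higher. Of 7 tested light-harvesting and photosystem genes, 5 were lower at 10 h and none higher, with a median of -0.41, the lowest being RCA (Rubisco activase) at -0.85 ± 0.15 (SE). Of 5 glucosinolate genes, 4 were lower and none higher (median -1.203), namely AOP3, UGT74B1, BCAT4 and AOP1. Of 3 nitrogen and sulfur assimilation genes, 2 were lower (median -0.48), namely APS3 at -0.48 ± 0.16 and SIR at -0.60 ± 0.12 (SE), both of sulfate assimilation. The opposite direction was seen in 4 of 4 tested genes listed under low sugar and darkness (median 2.04), among them AKINBETA1 at 2.79 ± 0.12 and BZIP53 at 1.54 ± 0.14 (SE). The 4 include EXO at 2.54 ± 0.16 (SE), and whether it responds to low sugar was not tested here. Cold response genes were higher in 4 of 6 (median 0.88), namely COR15A, COR15B, COR27 and COR47. Mixed directions came from chlorophyll and carotenoid synthesis (2 higher and 2 lower of 9), starch and sucrose metabolism (2 higher and 3 lower of 6) and auxin (2 higher and 1 lower of 6). Few or no calls came from gibberellin and brassinosteroid (1 higher of 3), flowering time (1 lower of 5), heat response (0 of 1) and reference genes (1 lower of 3). The reference gene called was GAPC2, at -0.96 ± 0.12 (SE), adjusted p = 5.1e-06 by limma, while PEX4 and TUB6 were not called. Few genes of each list had a named probe set, so these counts cover small parts of the pathways.

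The difference between 10 h and 4 h in phyB-1 at 16 °C was not used to choose members. With all 16 arrays as labelled, limma called 0 of 185 tested members, and 0% of 13648 probe sets. At an unadjusted p under 0.05 there were 168 probe sets and 0 members. The mean of both replicates cancelled, with a members' median of -0.01 (-0.63 to 0.80). Within replicate 1 all 186 members were lower at 10 h, with a median of -2.04 (-5.52 to -0.31), and 161 of them lay at -1.5 or lower, against 378 of all 22746 probe sets. Within replicate 2 as labelled all 186 were higher at 10 h, with a median of 2.01 (0.44 to 4.90), and 161 lay at 1.5 or higher, against 284 of all probe sets.

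Without the disputed arrays, 14 arrays remained and phyB-1 at 16 °C had 1 array per time, which was assumed to vary like the other groups. The arrays left out were picked by their direction between 10 h and 4 h in earlier results of these data. The direction in this fit was thus settled by that choice. Its counts and p-values, with and without the block, are therefore a description, and nothing is read from them. In that fit 170 of 184 tested members were called, all lower at 10 h, against 4.40% of 13648 probe sets called lower and 7.85% called in either direction. With the replicate number as a block on these 14 arrays the counts were 179 members and 1654 probe sets. Missing the filter on dim probe sets kept 2 members out. AT1G13650 had 47.2 at 10 h, against 1126 at 4 h in replicate 1, a difference of -4.17 ± 0.35 (SE), adjusted p = 1.3e-06. Its replicate 2 arrays read 826 labelled 10 h, against 25.4 labelled 4 h. AT3G44450 had 27.9 at 10 h, against 491 at 4 h in replicate 1, -3.53 ± 0.42 (SE), adjusted p = 4.6e-05, and 305 labelled 10 h, against 10.6 labelled 4 h in replicate 2. GH9C2 had 73.5 at 10 h, against 758 at 4 h in replicate 1, -3.11 ± 0.32 (SE), adjusted p = 1.2e-05, and 649 labelled 10 h, against 109 labelled 4 h in replicate 2. In each of these genes the labels of replicate 2 gave the opposite direction. Named members not called in the fit without the block were AT4G26790 at -1.72 ± 0.56, AT5G41900 at -1.31 ± 0.44, AT5G44530 at -1.24 ± 0.38 and AT2G23840 at -0.57 ± 0.38 (SE).

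Temperature is a comparison that the choice of members did not use, since it is a mean over both times. The members as a whole were spread around 0 in Ler. Their median difference between 22 °C and 16 °C was -0.01, against 0.01 over all tested probe sets, with 91 above 0 and 95 below. Single members did differ, and limma called 29 of 186 members (15.6%), 20 lower and 9 higher at 22 °C, where 3.00% of 13648 probe sets were called (1.47% lower, 1.54% higher). An unadjusted p under 0.05 was reached by 62 members, the 29 included. In each of the 29 both replicate sets had the same sign, and in 27 both times did. At 10 h the arrays of the 2 temperatures were apart in all 29, and in 23 they were also apart at 4 h. The calls came from these same arrays, and the shares over all called probe sets were not counted. These counts therefore describe the calls and add nothing to them. For 14 of the 20 lower calls the difference was larger at 10 h, and for 6 of the 9 higher calls it was larger at 4 h. Unlike the mean over both times, this change between times is built from the 10 h minus 4 h differences that chose the members. It is a description, and nothing is read from it.

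The call depended on which arrays entered. With 14 arrays the count was 28 of 184 members (2.95% of all). With all 16 arrays as labelled it was 0, and 54 of all probe sets were called. With the replicate number as a block the counts were 39 members and 954 probe sets. Leaving out 1 array gave 10 members without Ler 22 °C 10 h replicate 1, 12 without Ler 22 °C 4 h replicate 1, 14 without Ler 16 °C 4 h replicate 1, and 16 without Ler 16 °C 10 h replicate 1 or Ler 22 °C 4 h replicate 2.

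AT5G62210, of the embryo-specific 3 family, had the largest named difference. In Ler at 10 h it had 2.29 and 11.6 at 22 °C, against 37.5 and 71.8 at 16 °C. At 4 h it had 50.8 and 56.4 at 22 °C, against 211 and 209 at 16 °C. It was lower at 22 °C at both times, 1 of the 10 h arrays at 16 °C lay above both 4 h arrays at 22 °C, and the fit gave -1.66 ± 0.21 (SE), adjusted p = 0.00031.

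In Ler, AT5G48490 at 10 h had 256 and 278 at 22 °C, against 611 and 846 at 16 °C. At 4 h it had 2147 and 2069 at 22 °C, against 2777 and 3749 at 16 °C. It was lower at 22 °C at both times, more so at 10 h (-1.38) than at 4 h (-0.61), with a mean of -0.99 ± 0.14 (SE), adjusted p = 0.00077. The flavonol gene AT1G06000 at 10 h had 3.08 and 8.38 at 22 °C, against 30.9 and 21.7 at 16 °C. At 4 h it had 77.8 and 87.3 at 22 °C, against 192 and 136 at 16 °C. All arrays at 22 °C were below those at 16 °C within each time, and the difference was -0.91 ± 0.22 (SE), adjusted p = 0.033. The call was lost under 10 of 23 other settings, over which the difference ran from -1.54 to -0.50.

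AT3G01060 was lower at 22 °C at 10 h, with 37.3 and 51.5 at 22 °C, against 176 and 146 at 16 °C. At 4 h the temperatures overlapped, with 648 and 729 at 22 °C, against 606 and 684 at 16 °C. The difference was -1.56 at 10 h and 0.09 at 4 h, with a mean of -0.73 ± 0.13 (SE), adjusted p = 0.0064. AT5G35970 at 10 h had 55.5 and 76.6 at 22 °C, against 117 and 127 at 16 °C, and at 4 h 1136 and 1062 at 22 °C, against 1371 and 1283 at 16 °C. AT3G24190, of the ABC1-like kinase family, at 10 h had 106 and 87.7 at 22 °C, against 153 and 152 at 16 °C, and at 4 h 383 and 328 at 22 °C, against 451 and 485 at 16 °C. Both were lower at 22 °C at each time, at -0.52 ± 0.13 (SE), adjusted p = 0.04 for AT5G35970 and at -0.48 ± 0.13 (SE), adjusted p = 0.048 for AT3G24190, and both calls were lost under 18 of 23 other settings.

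The 3 named members that were higher at 22 °C were AT1G55960, AT2G19650 and AT1G66330. AT1G55960 at 10 h had 50.8 and 44.9 at 22 °C, against 29.97 and 38.3 at 16 °C. At 4 h it had 352 and 473 at 22 °C, against 184 and 189 at 16 °C. Its arrays at 22 °C were above those at 16 °C within each time, more so at 4 h (1.07) than at 10 h (0.35), with a mean of 0.71 ± 0.15 (SE), adjusted p = 0.015. AT2G19650 at 10 h had 17.8 and 14.0 at 22 °C, against 7.23 and 6.88 at 16 °C, and at 4 h 102 and 125 at 22 °C, against 46.0 and 53.3 at 16 °C. AT1G66330 at 10 h had 80.6 and 74.4 at 22 °C, against 50.2 and 59.0 at 16 °C, and at 4 h 373 and 451 at 22 °C, against 221 and 252 at 16 °C. Both were higher at 22 °C at each time, by 0.72 ± 0.17 (SE), adjusted p = 0.03 for AT2G19650 and by 0.58 ± 0.14 (SE), adjusted p = 0.027 for AT1G66330. Of 23 other settings, 10 lost the call of AT2G19650 (0.41 to 1.12), 9 that of AT1G66330 (0.46 to 0.65) and 6 that of AT1G55960 (0.55 to 0.81).

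**Figure D4:**
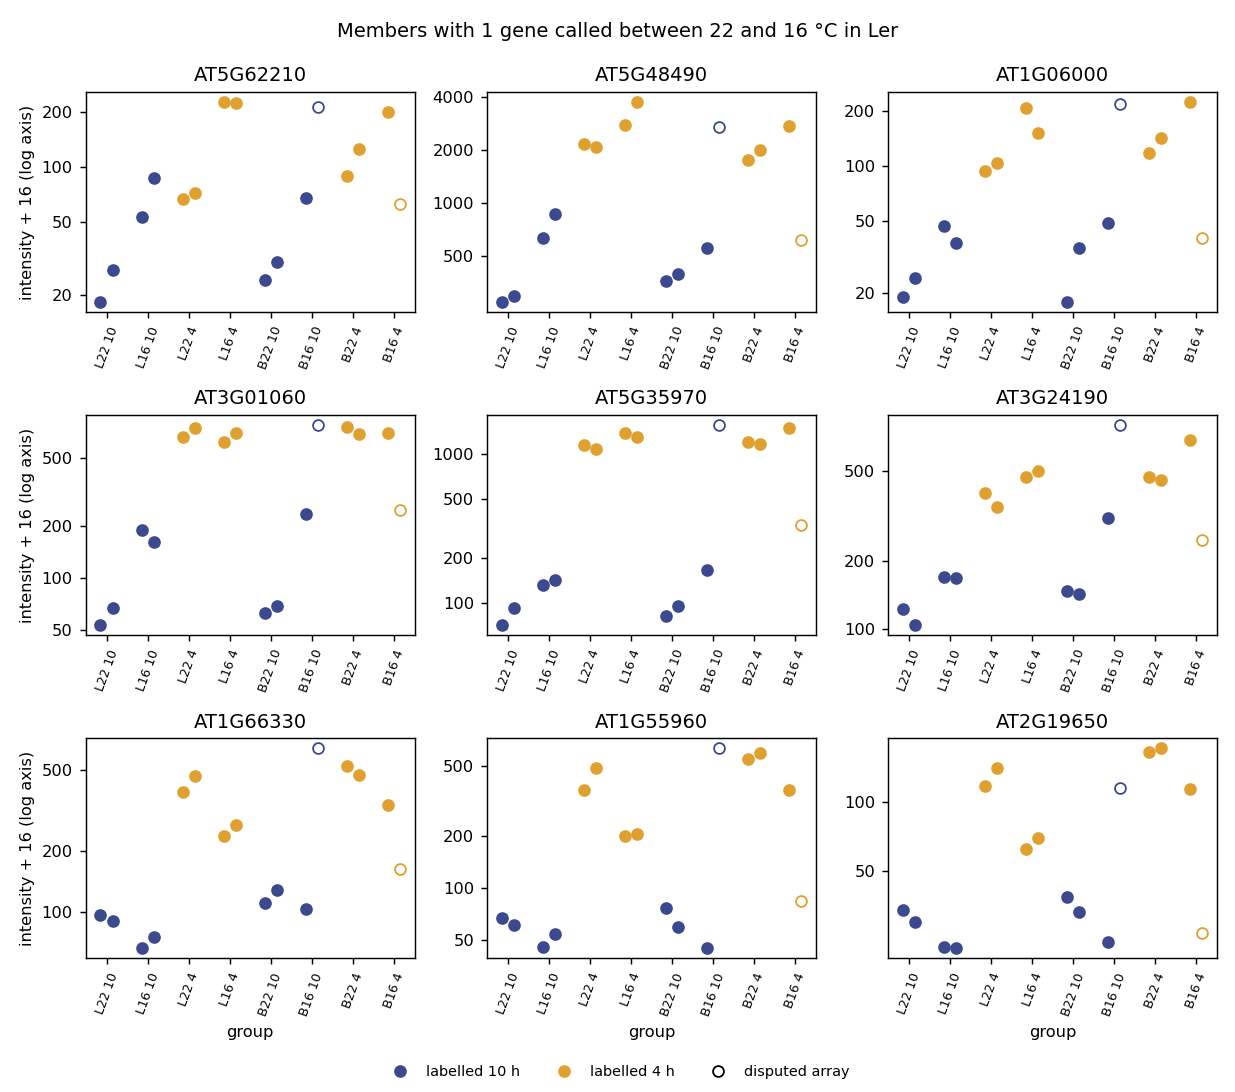
Intensity + 16 on a log axis of the 9 named members called between 22 and 16 °C in Ler; each point is 1 array, L is Ler, B is phyB-1, 22 and 16 are °C, and the last number is the labelled hour. In Ler the 22 °C arrays lie below the 16 °C arrays at 10 h for the first 6 genes and above them for the last 3, and the open points are the disputed arrays.

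In phyB-1 the same comparison used the disputed arrays. With all 16 arrays 1 of 185 members was called between 22 °C and 16 °C, where 0.637% of all probe sets were called (0.256% lower at 22 °C). It was the unlisted probe set 250207_at, at -2.10 ± 0.40 (SE), adjusted p = 0.034, which was picked out after its values were seen and was also the lowest call in Ler, at -1.81 ± 0.22 (SE). In Ler at 10 h it had 94.1 and 229 at 22 °C, against 924 and 599 at 16 °C, and at 4 h 1014 and 665 at 22 °C, against 2218 and 2168 at 16 °C. The call in phyB-1 was lost without any 1 of 8 arrays, the replicate 1 or 2 array at 4 h in Ler at 22 °C, phyB-1 at 22 °C or Ler at 16 °C, and the replicate 1 or 2 array at 10 h in phyB-1 at 22 °C. Leaving out 1 array of phyB-1 at 16 °C gave 10 members called without 4 h replicate 2, 6 without 10 h replicate 1, 3 without 4 h replicate 1 and 2 without 10 h replicate 2.

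Without the disputed arrays 22 of 184 members (12.0%) were called in phyB-1, 16 lower and 6 higher at 22 °C, where 3.82% of all probe sets were called (1.34% lower, 2.48% higher). With the replicate number as a block on 14 arrays the counts were 29 members and 790 probe sets. The fit without the block sets both replicates of phyB-1 at 22 °C against replicate 1 alone at 16 °C. Temperature is therefore partly mixed with the replicate number in it, also in the comparison with Ler below. The named members it called lower were AT5G55570 at -1.16 ± 0.21, AT5G62210 at -1.12 ± 0.25, AT3G56290 at -0.92 ± 0.17, AT3G01060 at -0.89 ± 0.16, AT3G24190 at -0.83 ± 0.15 and AT5G35970 at -0.62 ± 0.16 (SE). Those called higher were AT2G26690 at 0.75 ± 0.19 and AT5G02230 at 0.79 ± 0.20 (SE). Of the members called in phyB-1, 14 were also called in Ler, 63.6% of the calls in phyB-1 and 48.3% of those in Ler, and all 14 had the same sign. Among the other 13354 probe sets tested in both fits, 159 were called in both, all with the same sign, 32.1% of 496 calls in phyB-1 and 41.7% of 381 calls in Ler. Of the 29 members called in Ler, 28 had the same sign in phyB-1. Over 184 members the 2 sets of differences, which share no array, had a Pearson r of 0.70, and over the other 13354 probe sets r was 0.49, both given as a description. The difference between the genotypes in their response to temperature was tested directly in both fits. It was called for 0 of 13648 probe sets by limma in either, with 321 at an unadjusted p under 0.05 in 16 arrays, none of them members, and 1022 in 14 arrays, of which 24 were members.

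**Figure D5:**
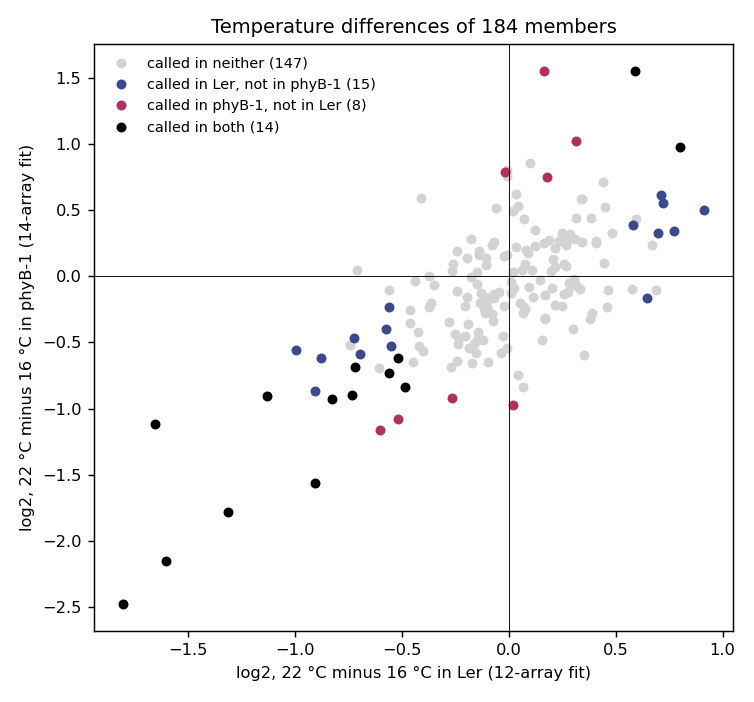
Difference in log2(intensity + 16) between 22 and 16 °C of 184 members, in Ler (horizontal, 12-array fit) and in phyB-1 (vertical, 14-array fit without the disputed arrays); each point is a probe set, coloured by whether it was called. The 14 members called in both genotypes lie in the lower left or upper right of the plot.

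Few members were called between the genotypes at 22 °C. The median of phyB-1 minus Ler was 0.08, with 120 of 186 members above 0, where 53.7% of all tested probe sets were above 0. Limma called 2 of 186 members (1.08%), both higher in phyB-1, where 0.513% of 13648 probe sets were called (0.249% higher), and 31 members had an unadjusted p under 0.05. Both are unlisted probe sets. 264146_at had 174 and 184 in phyB-1 and 92.5 and 98.5 in Ler at 10 h, and 1493 and 1659 in phyB-1 and 912 and 1234 in Ler at 4 h. The genotypes were apart at both times, and the difference was 0.68 ± 0.14 (SE), adjusted p = 0.039. 264146_at was also called higher at 22 °C than at 16 °C in Ler, by 0.91 ± 0.14 (SE), adjusted p = 0.0015 by limma. That was the highest temperature difference of any member in Ler.

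247921_at had 237 and 244 in phyB-1 and 109.9 and 123 in Ler at 10 h, and 674 and 753 in phyB-1 and 559 and 615 in Ler at 4 h. Again the genotypes were apart at both times, more widely at 10 h, and the difference was 0.62 ± 0.12 (SE), adjusted p = 0.031. With the replicate number as a block 4 members were called, and with all 16 arrays 0. No member was called when Ler 22 °C 4 h replicate 1, Ler 22 °C 10 h replicate 1 or 2, or any 1 array of phyB-1 at 22 °C was left out, and 1 was called without Ler 22 °C 4 h replicate 2. Among named members the largest differences were those of AFR at 0.62 ± 0.18 and AT2G26690 at 0.62 ± 0.15 (SE), with adjusted p of 0.22 and 0.12. AT2G26690 was called with the replicate number as a block on 14 arrays, at 0.62 ± 0.13 (SE), adjusted p = 0.026 by limma.

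At 16 °C, phyB-1 and Ler were compared with and without the disputed arrays. With all 16 arrays limma called 0 of 185 members (6 at an unadjusted p under 0.05), where 0.0147% of all probe sets were called. With 14 arrays it called 2 of 184, where 0.0806% of all were called (0.0513% higher in phyB-1). They were 264146_at at 1.101 ± 0.17 (SE), adjusted p = 0.016, and 261191_at at 1.03 ± 0.18 (SE), adjusted p = 0.031, both unlisted, higher in phyB-1 and picked out after their values were seen. That fit sets only the replicate 1 arrays of phyB-1 against both replicates of Ler. With the replicate number as a block on the same 14 arrays 5 members and 49 probe sets were called at 16 °C, and 4 members and 166 probe sets at 22 °C. On 14 arrays, with and without the block, 264146_at was called at 16 °C and 22 °C, and with the block its differences were 1.21 ± 0.15 at 16 °C and 0.68 ± 0.11 at 22 °C (SE), adjusted p = 0.0011 and 0.0052. With all 16 arrays its difference at 16 °C was 1.31 ± 0.41 (SE), adjusted p = 0.85.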

How the data were processed

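The deposited table holds 1 intensity value per probe set and array. Per the submitters' processing notes, the authors made these intensity values with MAS5 in GCOS, whose versions are not given in the sources used here. The trimmed mean of every array (2% trimmed) was near 100, so the deposited scaling was kept. Control probe sets (64 of 22810) were left out. Gene names came from the platform annotation and the RefSeq table of TAIR10.1, and 13513 probe sets had 1 gene, 503 several and 8730 none listed.

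Values were taken as log2(intensity + 16) of the deposited intensities and fitted in R 4.3.3 with limma 3.58.1 (lmFit, eBayes with trend). The 13648 probe sets in the upper 60% of mean log2 were tested, with Benjamini-Hochberg adjustment over all of them, and an adjusted p under 0.05 is a call. Temperature in Ler and genotype at 22 °C used the 12 arrays of phyB-1 at 22 °C and Ler at both temperatures (6 residual degrees of freedom), as means over both times. Comparisons with phyB-1 at 16 °C used all 16 arrays, and 14 without the disputed arrays. The script was tested on simulated data. The number of arrays, 2 per group, limits the precision.

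Same-numbered arrays deviated together from their group means in all 15 pairs of undisputed groups (correlation 0.15 to 0.48) and in 27 of 28 pairs in all (lowest -0.43), so the replicate numbers in the labels mark 2 sets, and fits with the number as a block are given where they change a count. The members and gene lists were chosen with earlier results of these data known. Array values are given for the 12 named members with the lowest mean difference, named members called between temperatures in Ler, and list members. Some other members have array values or ranges too. Not every unlisted probe set that was called is named. In the lists, symbols that name another gene in the annotation (APK1, CHI, PGM and PEP) were not matched. Alternatives were other offsets, no filter, quantile and median scaling, the replicate block, array weights, other sets of arrays and leaving out each array.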

Additional observations from a re-analysis of the deposited data

How the results depend on the processing

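The choice of members followed the threshold and offset. There were 314 with an offset of 1, 74 with 64, 314 with a threshold of -1.2 and 76 with -2 (both sets of 314 hold the 186), 182 with quantile normalization (180 shared with the 186), and 162 (146 shared) or 185 (156 shared) from replicate set 1 or 2 alone. For temperature in Ler (410 probe sets, 29 members), the counts were 209 and 17 with no filter, 190 and 14 with median centring, 54 and 0 with all 16 arrays, 954 probe sets with the replicate block, 944 with the block on 14 arrays, and 19 members from the groups compared alone. Leaving out 1 array gave 145 to 366 probe sets and 10 to 25 members. For phyB-1 minus Ler at 22 °C (70 and 2), they were 24 and 1 with no filter, 27 and 0 with median centring, 174 and 4 with the replicate block, 166 and 4 with the block on 14 arrays, 4 and 0 with all 16 arrays, and 9 to 84 and 0 to 3 without 1 array.

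For 10 h minus 4 h in phyB-1 at 16 °C (0 and 0), they were 1072 and 170 on 14 arrays, 1654 and 179 with the block on 14 arrays, and 0 to 7 and 0 to 0 without 1 array. For temperature in phyB-1 (87 and 1), they were 57 and 0 with no filter, 50 probe sets with median centring, 45 with array weights, 8 and 0 from the groups compared alone, 521 and 22 on 14 arrays, 790 and 29 with the block on 14 arrays, and 20 to 211 and 0 to 10 without 1 array. For phyB-1 minus Ler at 16 °C (2 and 0), they were 1 probe set with an offset of 1, an offset of 64, no filter or the replicate block, 0 from the groups compared alone, 11 and 2 on 14 arrays, 49 and 5 with the block on 14 arrays, and 1 to 21 and 0 to 4 without 1 array.

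Of the 9 named calls between temperatures in Ler, AT5G62210, AT5G48490 and AT3G01060 kept the call in 22 of 23 alternatives, AT1G55960 in 17, AT1G66330 in 14, AT1G06000 and AT2G19650 in 13, and AT3G24190 and AT5G35970 in 5. None changed sign in these 23. The causes of these changes were not tested. The planned promoter motif comparison was not run, as no sequence was used here. With 2 arrays per group and dim signals at 10 h, small differences among the dimmest members cannot be resolved.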
